A study of Mus musculus with 9 samples.

Results

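The genes described here carry glucose into the cell, break it down to pyruvate and lactate, and decide whether pyruvate enters the mitochondrial pyruvate dehydrogenase complex. They were chosen by name, as 34 glucose and lactate transporters, glycolytic enzymes and their regulators, and subunits and kinases of pyruvate dehydrogenase, and not by their values. Of these, 31 were measured by a probe set that names exactly 1 gene, out of 18194 genes measured in this way. The remaining 3 (Gpi1, Pfkfb1 and Eno1) were not analysed here.

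Glycolysis turns glucose into pyruvate and yields ATP without oxygen. Hexokinases trap glucose as its phosphate, phosphofructokinase commits the sugar to breakdown, and fructose-2,6-bisphosphate, made and removed by the PFKFB enzymes, is the strongest allosteric activator of that step. Pyruvate is then reduced to lactate or oxidised by pyruvate dehydrogenase, which its kinases switch off. Neutrophils, platelets and mature red cells live mainly on glycolysis, and many of these genes are classical targets of the hypoxia-inducible factor HIF-1.

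The values come from the blood of C57BL/6 mice aged 8 to 9 weeks. PT + HS mice (n = 3) were first injured at the head, at the thorax by a blunt blow and at the thigh, whose bone was broken under intact skin, which together make the polytrauma, and then went through hemorrhagic shock. From 1 h after trauma they were bled until the arterial pressure reached 30 mmHg, were held there for 60 min, and were then given fluid at 4 times the lost volume within 30 min, and norepinephrine where needed. PT mice (n = 3) had the polytrauma alone, and blood of both injured groups was taken 4 h after trauma. Ctrl mice (n = 3) were not manipulated and were bled right after anesthesia began. The injured mice also had prolonged anesthesia, buprenorphine and catheters, so that in every difference from Ctrl these and the injury cannot be told apart. Whole blood was stabilised at once, and the RNA therefore stems from all leukocytes, platelets and immature red cells. In such bulk RNA, fewer cells of a type and less RNA per cell cannot be told apart.

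All levels are log2 expression values of 1 array per mouse, so that a difference of 1 is a doubling. Levels belong to a probe set and were compared between groups, never between genes. The median array level lay between 3.63 and 3.76, and 25 of the 31 members had a mean above the median of all genes (4.29). The 6 members below it were Pfkfb2, Aldoc, Eno2, Pdk2, Pdk4 and Dlat. The array of PT animal 2 stood apart from the others, with correlations of 0.912 to 0.949 over all probe sets. It held the lowest of the 9 values for 13 of 31 members (41.9%) and for 4212 of all genes (23.2%). Counts and calls that change without it are given both ways. The 3′ and 5′ control probe sets of Gapdh, which differ when RNA is degraded, lay 0.01 to 0.20 apart in PT + HS, -0.11 to 0.18 in PT and 0.07 to 0.15 in Ctrl.

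**Figure D1:**
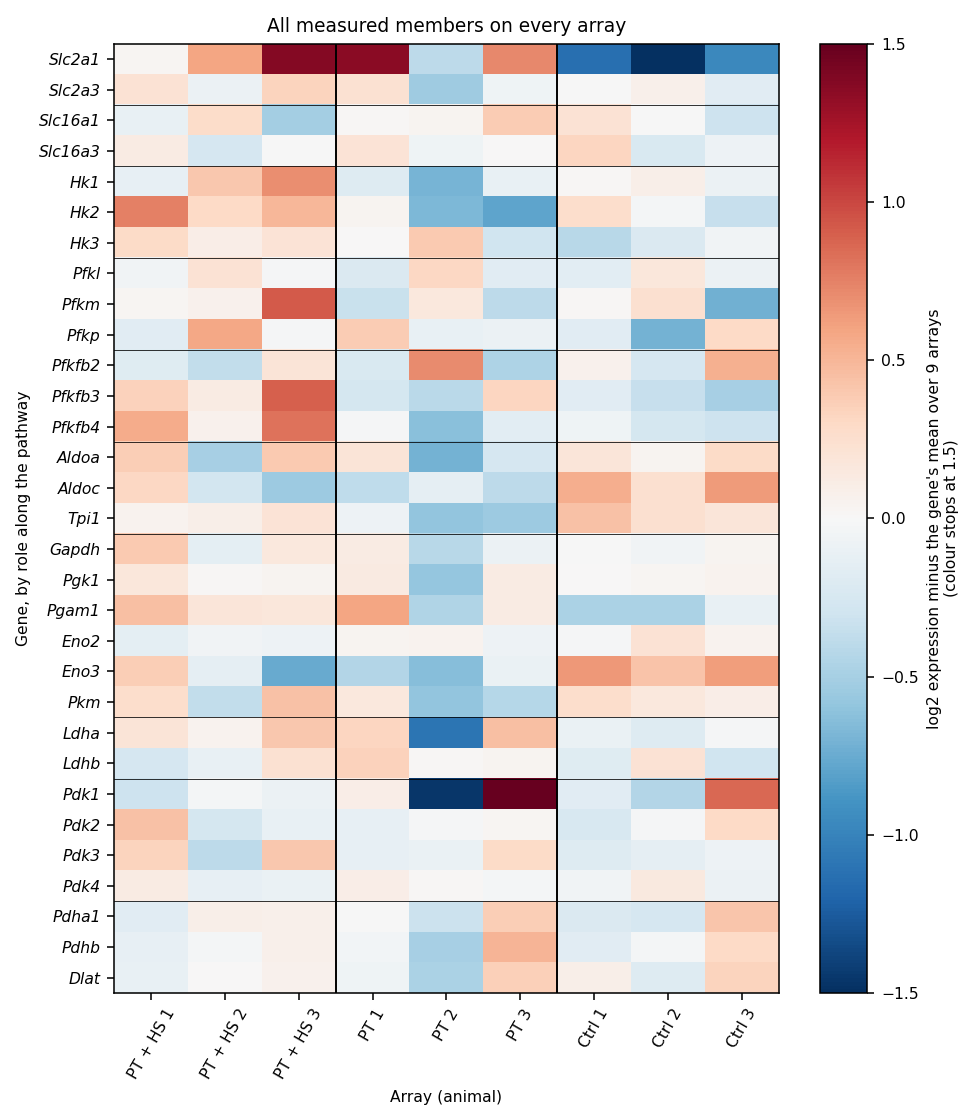
Heat map of the 31 measured members (rows, in pathway order) on the 9 arrays (columns, PT + HS, PT and Ctrl animals 1 to 3). Colour gives log2 expression minus the gene's mean over the 9 arrays and stops at 1.5 on either side, so that Slc2a1 stands out as lowest in the 3 Ctrl mice, and PT animal 2 holds the lowest value of 13 rows.

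The comparison of PT + HS with PT asks what the additional shock and its treatment changed. Blood loss, low pressure, the fluid given and norepinephrine went together in PT + HS, so that their parts cannot be told apart. At the thresholds of the study's methods, an unadjusted p under 0.05 and at least 1.5-fold, here with limma's moderated test, 3 of 31 members (9.68%) were higher in PT + HS and 0 lower, against 0.726% of all genes higher and 0.396% lower. The 3 were Hk2, Pfkfb4 and Hk1. No member had an adjusted p under 0.05, nor did any gene (0%), and the smallest adjusted p of a member was 0.99997. The unadjusted p alone was under 0.05 for 5 members (16.1%) and for 522 of all genes (2.87%), and the methods' t-test passed 1 member. The difference was positive for 22 members and negative for 9, with a member median of 0.14, against 0.00 over all genes. When PT animal 2 was left out, 1 of 31 members (3.23%), Hk2, passed as higher and 0 as lower. Of all genes, 1.39% then passed as higher and 3.31% as lower (855 in both directions, 4.70%). The member median was then 0.07, with 17 differences positive and 14 negative, and it was 0.03 with array weights, which give less weight to arrays that deviate.

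Between PT and Ctrl, 1 member (3.23%) was higher and 3 (9.68%) lower, against 1.41% and 2.26% of all genes. Slc2a1 was the higher one, while Eno3, Aldoc and Tpi1 were lower. Adjusted p values under 0.05 were again found for 0 members and 0% of all genes, with 0.468 as the smallest for a member, and the unadjusted p was under 0.05 for 4 members (12.9%) and 5.82% of all genes. The member median was -0.05, against 0.00 over all genes, with 12 differences positive and 19 negative. With PT animal 2 left out the count was 5 (16.1%), Pgam1 being added, against 6.14% of all genes (1117). The adjusted p was then under 0.05 for 1 member, Slc2a1, and for 47 of all genes, and the member median was 0.08, with 19 differences positive and 12 negative.

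Between PT + HS and Ctrl, 4 members (12.9%) were higher and 2 (6.45%) lower, against 1.99% and 1.29% of all genes. Slc2a1, Pfkfb3, Pfkfb4 and Pgam1 were higher, and Eno3 and Aldoc lower. No member had an adjusted p under 0.05, as did 0.00550% of all genes (1 gene), and the smallest for a member was 0.439. The unadjusted p was under 0.05 for 6 members (19.4%) and 4.86% of all genes. The member median was 0.04, against -0.01 over all genes, with 18 differences positive and 13 negative. Without PT + HS animal 3 only Slc2a1 passed (3.23%, against 3.02% of all genes). With the methods' t-test the 4 higher members passed and neither of the lower ones. The 3 comparisons share arrays, so that their values for a gene are not independent. In all, 9 members passed the thresholds in at least 1 comparison and 22 in none.

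**Figure D2:**
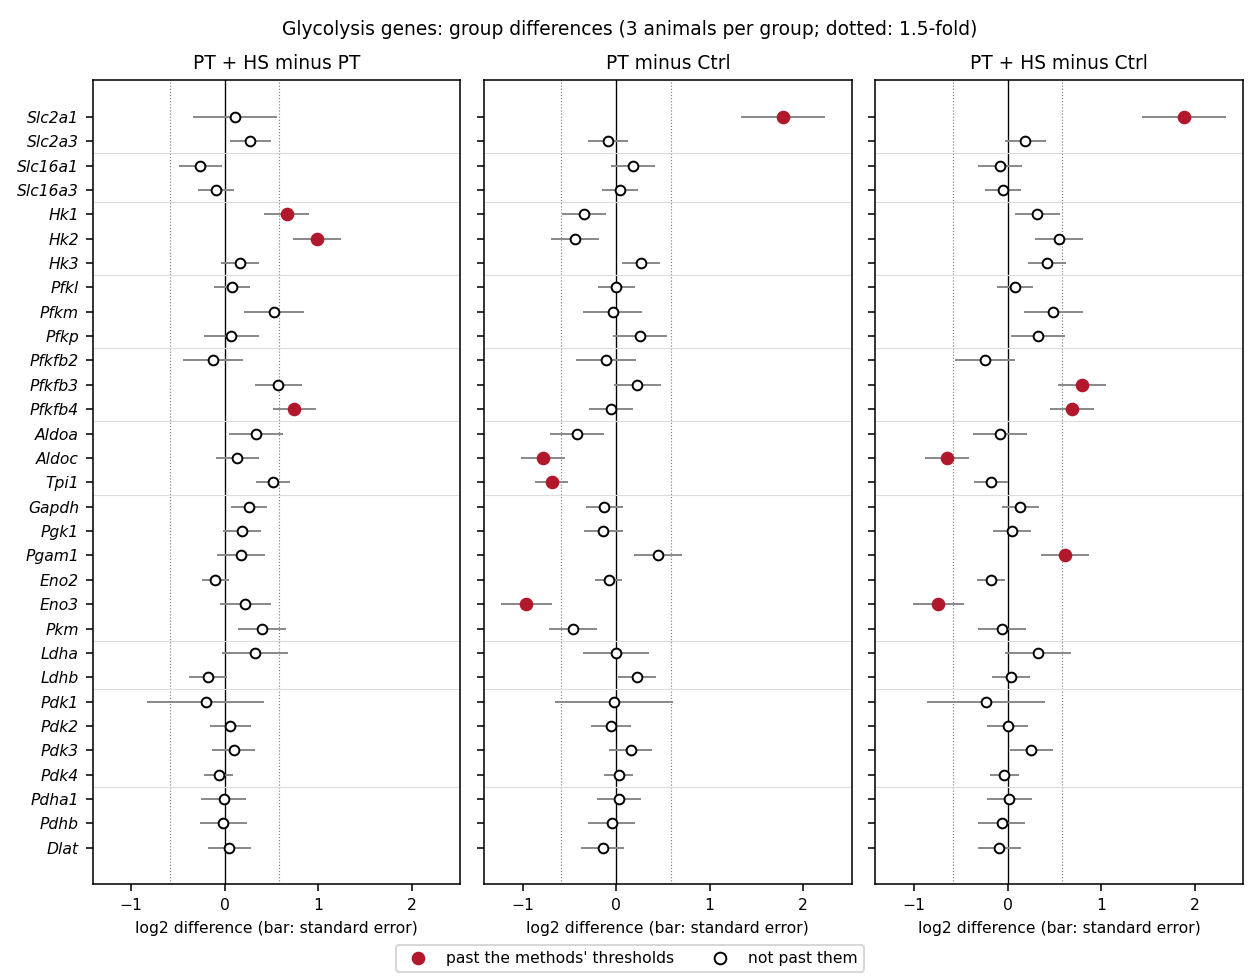
Log2 difference of each member between PT + HS and PT (left), PT and Ctrl (middle), and PT + HS and Ctrl (right), with 3 animals per group, bars for the standard error of the limma fit and dotted lines at 1.5-fold. Filled points passed the methods' thresholds: Hk1, Hk2 and Pfkfb4 on the left, 4 members in the middle with Slc2a1 at 1.78, and 6 on the right with Slc2a1 at 1.89.

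The promoters of 4 members are shown. Hk2 and Pfkfb4 were taken as members past the thresholds between PT + HS and PT, Pfkfb3 as one past them only between PT + HS and Ctrl, and Slc2a1 after its values had been seen. Hk1, also past them between PT + HS and PT, is not printed, and the matches in its windows are given below. Each is a RefSeq window of 300 bases in build GRCm38.p6, from 250 bases before a transcription start to 50 after it. Capitals mark ACGTG and GCGTG on either strand (CACGT and CACGC read from the other strand), the core to which HIF-1 binds.
Hk2, chr6:82774405-82774704, minus strand: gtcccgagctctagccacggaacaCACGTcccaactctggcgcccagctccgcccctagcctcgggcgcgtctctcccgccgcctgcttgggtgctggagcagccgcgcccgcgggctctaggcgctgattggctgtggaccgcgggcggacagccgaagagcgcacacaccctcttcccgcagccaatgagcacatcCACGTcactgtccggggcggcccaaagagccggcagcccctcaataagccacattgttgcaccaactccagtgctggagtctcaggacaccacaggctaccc
Pfkfb4, chr9:108991652-108991951, plus strand: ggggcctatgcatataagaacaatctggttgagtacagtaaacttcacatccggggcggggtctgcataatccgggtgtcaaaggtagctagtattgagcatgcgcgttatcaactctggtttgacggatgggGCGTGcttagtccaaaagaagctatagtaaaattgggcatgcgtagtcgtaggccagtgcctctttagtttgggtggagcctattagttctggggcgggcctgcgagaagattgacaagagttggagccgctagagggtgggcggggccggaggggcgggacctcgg
Pfkfb3, chr2:11553880-11554179, minus strand: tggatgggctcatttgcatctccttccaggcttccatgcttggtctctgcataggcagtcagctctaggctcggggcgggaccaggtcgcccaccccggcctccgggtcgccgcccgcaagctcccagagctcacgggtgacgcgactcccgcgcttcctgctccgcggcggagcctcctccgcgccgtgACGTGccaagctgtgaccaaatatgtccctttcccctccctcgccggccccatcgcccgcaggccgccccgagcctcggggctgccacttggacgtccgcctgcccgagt
Pfkfb3, chr2:11502041-11502340, minus strand: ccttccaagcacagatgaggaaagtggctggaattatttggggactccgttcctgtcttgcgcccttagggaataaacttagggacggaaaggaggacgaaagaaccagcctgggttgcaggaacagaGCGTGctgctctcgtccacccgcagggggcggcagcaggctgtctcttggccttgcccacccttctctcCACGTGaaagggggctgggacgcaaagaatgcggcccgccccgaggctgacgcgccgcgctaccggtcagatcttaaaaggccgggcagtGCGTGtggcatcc
Slc2a1, chr4:119108495-119108794, plus strand: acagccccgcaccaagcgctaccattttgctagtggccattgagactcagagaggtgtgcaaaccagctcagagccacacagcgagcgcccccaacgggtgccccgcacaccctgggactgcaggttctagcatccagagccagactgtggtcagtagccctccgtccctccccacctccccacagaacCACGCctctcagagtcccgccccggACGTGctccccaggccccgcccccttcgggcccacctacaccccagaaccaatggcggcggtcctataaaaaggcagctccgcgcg

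The Hk2 window held 2 matches, both ACGTG, and the Pfkfb4 window 1, GCGTG. The first Pfkfb3 window held 1 ACGTG. The second held 2 GCGTG and, in 1 palindromic CACGTG read on both strands, 2 ACGTG. Slc2a1 had 1 of each. Of the 2 Hk1 windows, chr10:62379859-62380158 had no match and chr10:62340372-62340671 had 2 ACGTG and 3 GCGTG, a pair of the last overlapping in opposite directions. Over 52 windows of 33 listed members (none for Slc2a3), 23 held ACGTG (44.2%), 28 GCGTG (53.85%), 6 CACGTG (11.5%) and 39 either of the first pair (75.0%). Over all 32851 windows the shares were 19.6%, 32.4%, 7.15% and 43.8% in the same order. The member windows were also richer in G and C, with a median of 60.5%, against 52.7% over all. These letter matches describe the sequence and were not tested for binding.

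Blood cell markers differed between the groups and are given because the members are expressed by several of these cells. The mean level of 16 neutrophil markers lay between 7.71 and 9.00 in PT + HS, 7.25 and 8.71 in PT, and 6.32 and 7.40 in Ctrl. Of these markers, 11 passed the thresholds as higher in PT + HS than in Ctrl, 9 as higher in PT than in Ctrl and 0 between PT + HS and PT, although 13 of 16 differences were positive in that comparison. The mean of 13 B-cell markers lay between 5.58 and 6.07 in PT + HS, 5.17 and 6.94 in PT, and 6.997 and 7.86 in Ctrl, with 12 markers lower in each injured group than in Ctrl. The mean of 11 platelet markers lay between 9.87 and 10.2 in PT + HS, 9.60 and 9.79 in PT, and 9.997 and 10.3 in Ctrl, so that PT was below both other groups without overlap. All 11 platelet markers had a positive difference between PT + HS and PT, none of them past the thresholds, and 2 were lower in PT than in Ctrl. Of 15 monocyte markers, PT + HS exceeded PT past the thresholds in 3, and the mean of all lay between 7.28 and 7.78 in PT + HS, 6.70 and 7.65 in PT, and 7.08 and 7.53 in Ctrl. Against Ctrl, 3 monocyte markers were higher and 5 lower in PT, and 3 higher and 1 lower in PT + HS. The mean of 11 NK cell markers lay between 5.81 and 6.32 in PT + HS, 5.18 and 6.00 in PT, and 6.36 and 6.47 in Ctrl, and PT + HS exceeded PT past the thresholds in 1 marker. Below Ctrl past the thresholds were 6 NK cell markers in PT and 3 in PT + HS. T-cell markers (12) and red cell precursor markers (12) passed in no comparison. The mean of 15 muscle markers stayed between 3.65 and 3.89 in all groups, below the median of all genes. No marker can be at 0 on this scale.

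**Figure D3:**
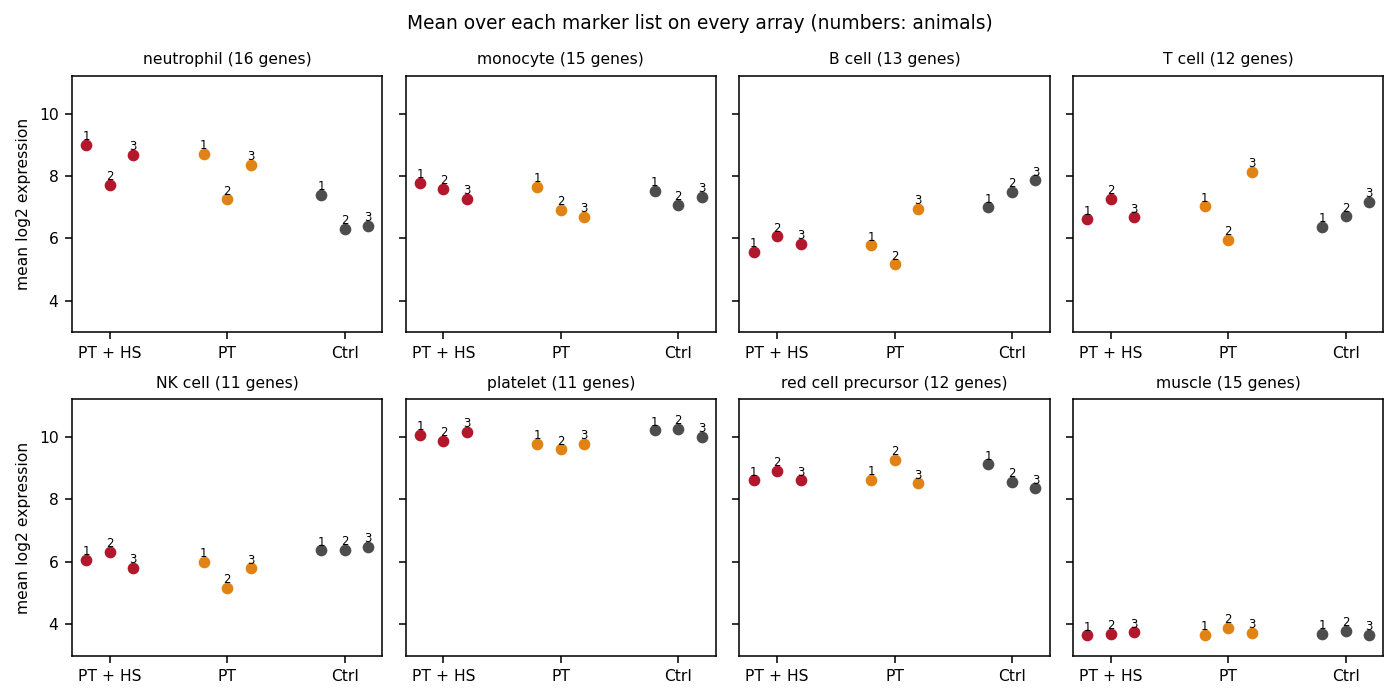
Mean log2 expression of each cell type's marker genes on every array, with PT + HS, PT and Ctrl from left to right and the animal's number above its point. Neutrophil means are highest in the injured groups (7.25 to 9.00, against 6.32 to 7.40 in Ctrl), B-cell means are highest in Ctrl, and platelet means are lowest in PT.

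Among the transporters of glucose, Slc2a1 showed the largest difference of any member. It encodes GLUT1, the basal glucose carrier of many cells. Its levels were 7.11, 7.67 and 8.45 in PT + HS animals 1 to 3, 8.43, 6.68 and 7.79 in PT animals 1 to 3, and 5.95, 5.50 and 6.11 in Ctrl animals 1 to 3. All 6 injured mice lay above all 3 Ctrl mice, while the injured groups overlapped. PT + HS exceeded Ctrl by 1.89 (3.71-fold, 95% interval 0.89 to 2.89, adjusted p = 0.439), and PT exceeded Ctrl by 1.78 (3.44-fold, interval 0.78 to 2.79, adjusted p = 0.468). Between PT + HS and PT the difference was 0.11, with an interval of -0.89 to 1.11 that covers a doubling in PT + HS. Without PT animal 2 it was -0.37, and PT exceeded Ctrl by 2.26. The other 2 probe sets of Slc2a1 gave 0.80 and 1.83 between PT + HS and Ctrl and 0.59 and 1.70 between PT and Ctrl. The neutrophil marker mean was higher in the injured groups as well, except in PT animal 2 (7.25, against 7.40 in Ctrl animal 1), and its part in the Slc2a1 difference was not tested.

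Slc2a3, which encodes GLUT3, a carrier of high affinity, did not follow. Its levels lay between 10.66 and 11.08 in PT + HS, 10.22 and 10.98 in PT, and 10.58 and 10.83 in Ctrl, so that all groups overlapped. The differences were 0.28 between PT + HS and PT, -0.09 between PT and Ctrl and 0.19 between PT + HS and Ctrl. Whether Slc2a1 and Slc2a3 responded differently was not tested.

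The lactate carriers Slc16a1 (MCT1) and Slc16a3 (MCT4, the exporter of strongly glycolytic cells) passed in no comparison. Slc16a1 was at 4.92, 5.30 and 4.52 in PT + HS, 5.04, 5.06 and 5.41 in PT, and 5.25, 5.01 and 4.71 in Ctrl. PT + HS animals thus gave both the lowest and the second highest value. The difference between PT + HS and PT was -0.26 (interval -0.78 to 0.26). Slc16a3 differed by -0.09 between PT + HS and PT, 0.05 between PT and Ctrl and -0.05 between PT + HS and Ctrl.

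The hexokinases were the role in which PT + HS and PT differed most often, with 2 of 3 measured members past the thresholds. Hk2, the inducible hexokinase that docks on mitochondria, was at 5.82, 5.36 and 5.56 in PT + HS, 5.11, 4.39 and 4.28 in PT, and 5.34, 5.04 and 4.72 in Ctrl. Each PT + HS mouse lay above each PT mouse and, by a small margin, above each Ctrl mouse, while PT and Ctrl overlapped. The mean was 5.58 ± 0.23 in PT + HS and 4.60 ± 0.45 in PT (SD, n = 3 each), a difference of 0.99 (1.98-fold, interval 0.41 to 1.56, adjusted p = 0.99997). Against Ctrl, Hk2 differed by 0.55 in PT + HS (1.47-fold, interval -0.02 to 1.13) and by -0.44 in PT (interval -1.01 to 0.14). The PT + HS mean therefore stood above Ctrl and the PT mean below it, and only the distance between the injured groups passed. Leaving out any 1 array kept Hk2 between 0.83 and 1.25 in PT + HS against PT, and without PT animal 2 it was 0.89, still past the thresholds. With array weights it was 0.57, under 1.5-fold. Hk2 also passed as higher in PT + HS than in Ctrl without Ctrl animal 1 (0.70) and as lower in PT than in Ctrl without PT animal 1 (-0.69). Hk2 was measured by 1 probe set. Between PT + HS and PT the differences were also positive for 14 of 15 monocyte markers (3 past the thresholds), 11 of 11 platelet markers, 11 of 11 NK cell markers and 13 of 16 neutrophil markers, and their part in the Hk2 and Pfkfb4 differences was not tested.

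Hk1, the hexokinase of most cells and of platelets and red cells, was at 6.76, 7.29 and 7.58 in PT + HS, 6.69, 6.18 and 6.77 in PT, and 6.90, 6.97 and 6.79 in Ctrl. PT + HS animals 2 and 3 lay above all other arrays, while PT + HS animal 1 lay among the PT animals, so that these groups overlapped. All PT mice were below all Ctrl mice. PT + HS exceeded PT by 0.66 (1.58-fold, interval 0.13 to 1.20, adjusted p = 0.99997), and PT differed from Ctrl by -0.34 (interval -0.88 to 0.19). The first difference was 0.48 without PT animal 2, 0.48 without PT + HS animal 3, 0.62 without PT + HS animal 2 and 0.54 with array weights, in each case no longer past the thresholds, nor did it pass with the methods' t-test. The second Hk1 probe set, with a mean of 4.44, gave 0.12 between PT + HS and PT. The platelet marker mean was likewise lower in PT than in both other groups, and its part in the Hk1 difference was not tested.

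Hk3, the hexokinase of myeloid cells, differed by 0.16 between PT + HS and PT. Its levels were 6.75, 6.56 and 6.67 in PT + HS and 6.47, 6.86 and 6.17 in PT, against 6.04, 6.25 and 6.42 in Ctrl. All PT + HS mice were above all Ctrl mice, by 0.42 on average (1.34-fold, interval -0.03 to 0.88), which did not pass. These values were chosen for display after they had been seen.

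None of the 3 phosphofructokinase subunit genes passed. Pfkm, the muscle-type subunit, was at 4.82, 4.85 and 5.71 in PT + HS, 4.45, 4.95 and 4.39 in PT, and 4.80, 5.03 and 4.07 in Ctrl. PT + HS animal 3 was the highest array and the groups otherwise overlapped. The difference between PT + HS and PT was 0.53 (interval -0.18 to 1.23) and became 0.23 without PT + HS animal 3. Pfkl, the liver-type subunit that dominates in neutrophils, differed by 0.07 between PT + HS and PT, by 0.00 between PT and Ctrl, and by 0.08 between PT + HS and Ctrl. Pfkp, the platelet-type subunit, gave 0.07, 0.25 and 0.32 in that order, with all groups overlapping. Other probe sets did not all point the same way, and none passed. Those of Pfkl, with means of 4.09 and 4.03, gave 0.48 and -0.31 between PT + HS and PT. Between PT + HS and Ctrl they gave 0.54 and 0.12. Those of Pfkp, with means of 4.41 and 3.22, gave -0.09 and -0.08 between PT + HS and PT, and -0.53 and -0.04 between PT + HS and Ctrl.

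Of the enzymes that set fructose-2,6-bisphosphate, Pfkfb4 and Pfkfb3 were higher in PT + HS. Pfkfb4 encodes a bifunctional kinase and phosphatase known as hypoxia-inducible. It was at 7.56, 7.07 and 7.81 in PT + HS, 6.99, 6.38 and 6.84 in PT, and 6.94, 6.74 and 6.70 in Ctrl. Every PT + HS mouse lay above every PT and every Ctrl mouse, though PT + HS animal 2 exceeded PT animal 1 only narrowly, and PT and Ctrl overlapped. PT + HS exceeded PT by 0.75 (1.68-fold, interval 0.23 to 1.26, adjusted p = 0.99997) and Ctrl by 0.69 (1.61-fold, interval 0.17 to 1.21, adjusted p = 0.814). PT differed from Ctrl by -0.06 (interval -0.58 to 0.46). Without PT animal 2 the difference between PT + HS and PT was 0.57, and without PT + HS animal 3 it was 0.58, in each case just short of 1.5-fold. It was 0.54 with array weights and did not pass with the methods' t-test. Without PT + HS animal 3 the difference from Ctrl was 0.52, short of the fold as well. One probe set measured Pfkfb4.

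Pfkfb3, the isoenzyme with the strongest kinase over phosphatase activity, was at 4.79, 4.56 and 5.33 in PT + HS, 4.18, 4.03 and 4.76 in PT, and 4.26, 4.09 and 3.94 in Ctrl. All PT + HS mice were above all Ctrl mice, and 1 PT mouse (animal 3) reached into the PT + HS range. PT + HS exceeded Ctrl by 0.80 (1.74-fold, interval 0.23 to 1.36, adjusted p = 0.728). Against PT the difference was 0.57 (interval 0.01 to 1.13), which at 1.49-fold fell just short of the fold threshold. It passed without PT animal 3 (0.79) and without PT + HS animal 2 (0.74). Without PT + HS animal 3 the difference from Ctrl was 0.58, also short of 1.5-fold. The second Pfkfb3 probe set, with a mean of 3.69, did not show this and gave -0.40 against PT and -0.03 against Ctrl. Pfkfb2, the heart-type isoenzyme, gave -0.13 between PT + HS and PT, with values of 3.85 to 4.41 in PT + HS, 3.76 to 4.92 in PT and 3.97 to 4.75 in Ctrl. The neutrophil marker mean was also higher in PT + HS than in Ctrl, and its part in the PFKFB differences was not tested.

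**Figure D4:**
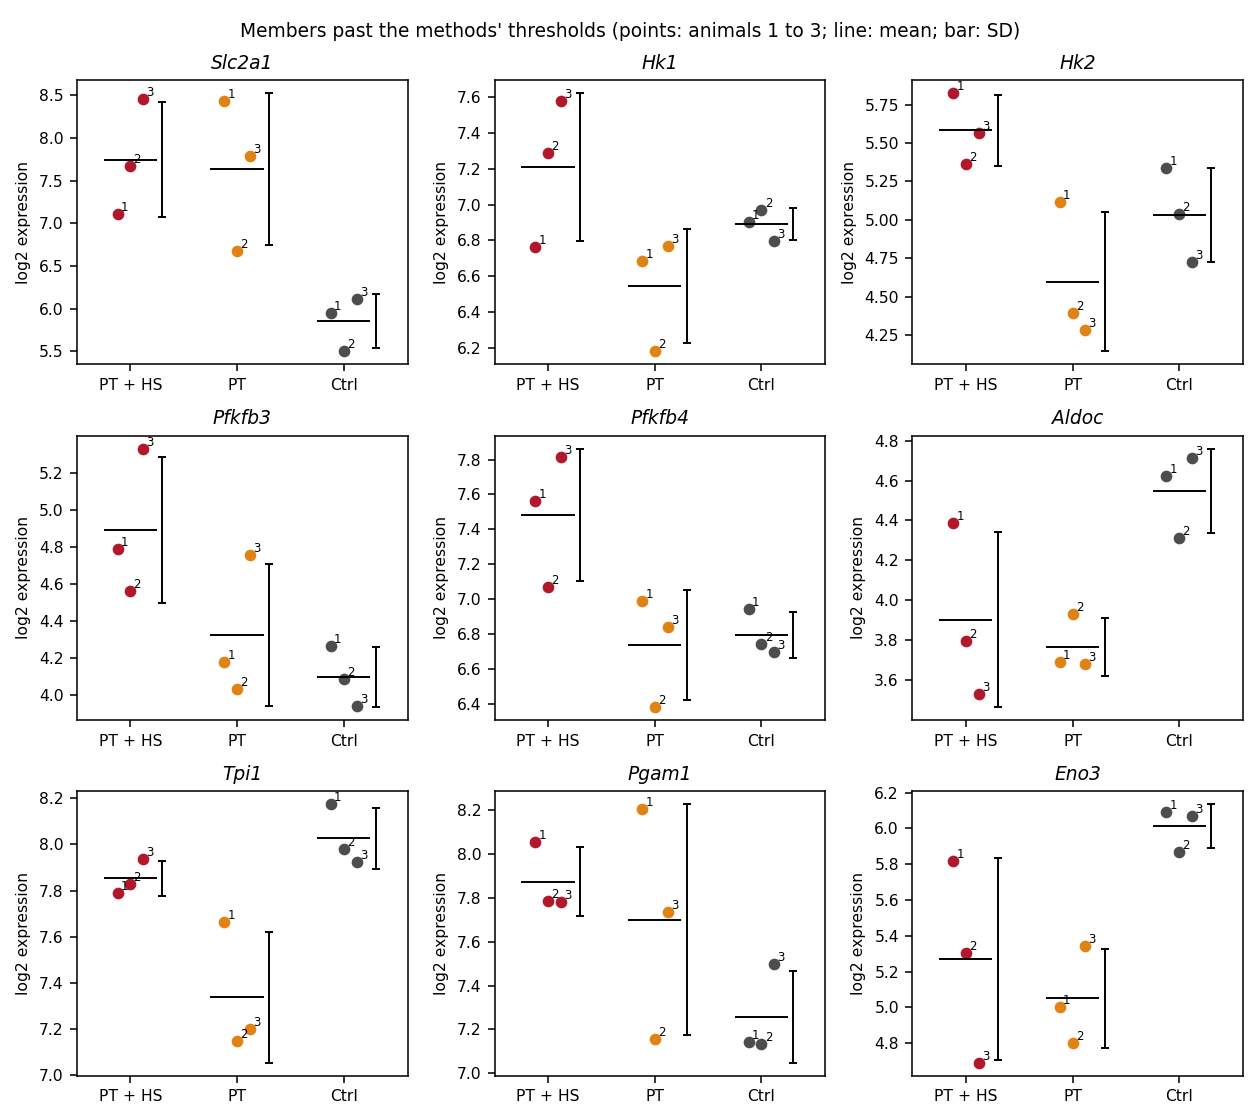
Log2 expression of the 9 members past the methods' thresholds in at least 1 comparison, with a point per animal (numbered), a line at the group mean and a bar for the SD. Slc2a1 is higher in both injured groups than in Ctrl, Hk2 and Pfkfb4 are highest in PT + HS without overlap with either other group, and Eno3 is lower in both injured groups (4.69 to 5.82 in PT + HS and 4.80 to 5.35 in PT, against 5.87 to 6.09 in Ctrl).

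In the middle of the pathway, 2 of 3 members were lower in PT than in Ctrl. Tpi1, which interconverts both triose phosphates, was at 7.79, 7.83 and 7.94 in PT + HS, 7.66, 7.15 and 7.20 in PT, and 8.17, 7.98 and 7.92 in Ctrl. PT lay below both other groups without overlap, while PT + HS and Ctrl overlapped. PT differed from Ctrl by -0.69 (0.62-fold, interval -1.09 to -0.29, adjusted p = 0.507). PT + HS exceeded PT by 0.52 (1.43-fold, interval 0.11 to 0.92), under the fold threshold, and differed from Ctrl by -0.17. Without PT animal 2 the difference between PT and Ctrl was -0.60, still past the thresholds, and with array weights it was -0.43, under 1.5-fold. The difference between PT + HS and PT passed without PT animal 1 (0.68). The other 2 Tpi1 probe sets gave -0.70 and -0.65 between PT and Ctrl. The platelet marker mean was likewise lowest in PT, and its part in the Tpi1 difference was not tested.

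Aldoc, the brain-type aldolase, was at 4.38, 3.80 and 3.53 in PT + HS, 3.69, 3.93 and 3.68 in PT, and 4.62, 4.31 and 4.71 in Ctrl. All PT mice were below all Ctrl mice, and 1 PT + HS mouse (animal 1) reached into the Ctrl range. The difference was -0.78 in PT against Ctrl (0.58-fold, interval -1.30 to -0.26, adjusted p = 0.63) and -0.65 in PT + HS against Ctrl (0.64-fold, interval -1.16 to -0.13, adjusted p = 0.84). The difference of PT + HS from Ctrl no longer passed without PT + HS animal 2 (-0.59), PT + HS animal 3 (-0.46), Ctrl animal 1 (-0.61) or Ctrl animal 3 (-0.56), or with the methods' t-test. The second Aldoc probe set, with a mean of 2.81, gave -0.10 and 0.09 for these comparisons. Aldoa, the common aldolase, was not past the thresholds and differed by 0.34 between PT + HS and PT and by -0.42 between PT and Ctrl. It passed as higher in PT + HS than in PT without PT + HS animal 2 (0.63).

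In lower glycolysis, 2 of 6 members passed in opposite directions. Pgam1, the non-muscle phosphoglycerate mutase, was at 8.06, 7.79 and 7.78 in PT + HS, 8.21, 7.16 and 7.74 in PT, and 7.14, 7.13 and 7.50 in Ctrl. PT + HS lay above Ctrl without overlap, and PT animal 2 fell into the Ctrl range while the other 2 PT mice did not. PT + HS exceeded Ctrl by 0.62 (1.53-fold, interval 0.05 to 1.19, adjusted p = 0.979). That call was lost when PT + HS animal 1, 2 or 3 or Ctrl animal 1 or 2 was left out, with differences of 0.53 to 0.67. The PT mean exceeded that of Ctrl by 0.44 (interval -0.13 to 1.02), and without PT animal 2 by 0.72, past the thresholds. The neutrophil marker mean was higher in PT + HS than in Ctrl as well, and its part in the Pgam1 difference was not tested.

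Eno3, the muscle-type enolase, was at 5.82, 5.30 and 4.69 in PT + HS, 5.00, 4.80 and 5.35 in PT, and 6.09, 5.87 and 6.07 in Ctrl. Every injured mouse lay below every Ctrl mouse, PT + HS animal 1 by a small margin. The difference was -0.96 in PT against Ctrl (0.51-fold, interval -1.57 to -0.35, adjusted p = 0.594) and -0.74 in PT + HS against Ctrl (0.60-fold, interval -1.35 to -0.13, adjusted p = 0.862). Without PT + HS animal 3 the difference of PT + HS from Ctrl was -0.45, no longer past the thresholds, nor did it pass without Ctrl animal 1 (-0.70) or Ctrl animal 3 (-0.71) or with the methods' t-test. None of 15 muscle markers passed in any comparison. The B-cell marker mean was also lower in both injured groups than in Ctrl, and its part in the Eno3 and Aldoc differences was not tested.

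The other 4 members of lower glycolysis did not pass. Gapdh, here measured by the array's own control probe sets, was at 10.59, 10.05 and 10.36 in PT + HS, 10.32, 9.78 and 10.12 in PT, and 10.20, 10.15 and 10.25 in Ctrl, values that overlapped throughout and were picked because the gene often serves as a reference. It differed by 0.26 between PT + HS and PT, -0.12 between PT and Ctrl and 0.14 between PT + HS and Ctrl. Pgk1, which forms the first ATP of the pathway, differed by 0.19, -0.14 and 0.05 in that order. Pkm, whose product yields pyruvate, gave 0.40, -0.46 and -0.06, and passed as higher in PT + HS than in PT without PT animal 1 (0.62) or PT + HS animal 2 (0.64), and as lower in PT than in Ctrl without PT animal 1 (-0.69). Eno2, the neuronal enolase, was low on every array (2.71 to 3.07). Genes such as Gapdh, Tpi1, Pgk1, Aldoa and Ldha have processed pseudogenes with nearly the same sequence, and the probe sets may read these as well.

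Neither lactate dehydrogenase gene passed. Ldhb, which encodes the heart-type subunit, was at 7.81, 7.94 and 8.28 in PT + HS, 8.40, 8.08 and 8.09 in PT, and 7.88, 8.28 and 7.76 in Ctrl, with all groups overlapping. Its largest difference was 0.22, between PT and Ctrl (interval -0.23 to 0.68). Ldha, the muscle-type subunit and a HIF-1 target, was at 9.04, 8.90 and 9.25 in PT + HS, 9.16, 7.75 and 9.30 in PT, and 8.75, 8.65 and 8.82 in Ctrl. PT + HS lay above Ctrl without overlap, by 0.32 (interval -0.47 to 1.11), and PT animal 2 was the lowest of all arrays while the other 2 PT mice were above Ctrl. The Ldha values were chosen for display after they had been seen.

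At the pyruvate gate, 0 of 7 members passed in any comparison. Of the kinases that switch pyruvate dehydrogenase off, Pdk3 had the smallest p in any comparison and was at 6.26, 5.54 and 6.33 in PT + HS, 5.80, 5.83 and 6.21 in PT, and 5.73, 5.79 and 5.85 in Ctrl. PT + HS animals 1 and 3 were the highest arrays and PT + HS animal 2 the lowest, a spread that left the difference from Ctrl at 0.25 (interval -0.26 to 0.77). Pdk1, a HIF-1 target, was at 6.32, 6.61 and 6.55 in PT + HS, 6.74, 5.18 and 8.18 in PT, and 6.47, 6.20 and 7.50 in Ctrl, and was picked after its spread had been seen. PT held both the lowest and the highest array, with an SD of 1.502, while that of PT + HS was 0.15, and the interval between PT + HS and PT ran from -1.61 to 1.20. The same PT arrays, animals 2 and 3, had the lowest and the highest mean of the T-cell markers (5.95 and 8.13). The part of T cells in the Pdk1 spread was not tested. Pdk2 and Pdk4, a kinase raised by fasting, were low throughout, at 2.57 to 3.26 and 2.45 to 2.72.

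None of the 3 measured subunits of pyruvate dehydrogenase passed. Pdha1 and Pdhb encode the alpha and beta subunits of the first enzyme of the complex. By the probe set used here, each differed by no more than 0.06 in either direction in the 3 comparisons. The intervals between PT + HS and PT ran from -0.54 to 0.52 for Pdha1 and from -0.58 to 0.54 for Pdhb. The second Pdha1 probe set, with a mean of 5.89, gave 0.19 between PT + HS and PT, 0.18 between PT and Ctrl and 0.38 between PT + HS and Ctrl. The second Pdhb probe set, with a mean of 2.81, gave -0.30, 0.24 and -0.06 in that order. Neither passed. Dlat, the second enzyme, was at 4.02, 4.13 and 4.19 in PT + HS, 4.06, 3.65 and 4.48 in PT, and 4.22, 3.94 and 4.46 in Ctrl. The groups overlapped, and the largest difference was -0.14, between PT and Ctrl (interval -0.65 to 0.37). Of the other 2 Dlat probe sets, 1 gave -0.03 and 1 gave -0.81 between PT + HS and PT, which passed the thresholds, so that the probe sets did not point the same way.

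Around glycolysis, 8 further lists with 114 measured genes were compared in the same fit. Between PT + HS and PT, 0 of these 114 passed. Between PT and Ctrl 4 were higher (3.51%) and 2 lower (1.75%), and between PT + HS and Ctrl 5 were higher (4.39%) and 0 lower, beside the shares of all genes given above. In the fit reported, no gene passed among 13 other glycolytic isoenzymes and 9 partners of pyruvate dehydrogenase. Nor did any of 11 genes of the pentose phosphate pathway and 19 of the citric acid cycle. Without PT animal 2, Adpgk passed between PT + HS and PT (-0.98), PT and Ctrl (1.89), and PT + HS and Ctrl (0.91). Dld (-0.68), Sucla2 (-0.67), Suclg2 (-0.76) and Fh1 (-0.59) then passed as lower in PT + HS than in PT. Dld (1.05), Lias (0.84), Rpe (0.70) and Sdhd (0.62) passed as higher in PT than in Ctrl. Suclg1 (-0.68) passed as lower in PT + HS than in Ctrl. In the fit reported, no gene of these 8 lists had an adjusted p under 0.05. With array weights 5 did between PT and Ctrl, beside 448 of all genes. When only the arrays of PT + HS and Ctrl were fitted 2 did, beside 134 of all genes. As an alternative chosen after seeing the data, each array was left out for these lists too. Without PT animal 2, 0 were higher and 6 (5.26%) lower between PT + HS and PT, against 1.39% and 3.31% of all genes. Between PT and Ctrl 12 (10.5%) were then higher and 1 (0.877%) lower, against 4.22% and 1.92% of all genes. The adjusted p was then under 0.05 for 2 list genes between PT and Ctrl, beside 47 of all genes. Between PT + HS and Ctrl it was so for 1, beside 53 of all genes. The counts also changed without other arrays. Without PT + HS animal 2, 4 (3.51%) were higher and 0 lower between PT + HS and PT. Of all genes, 1.32% and 0.517% then passed. Without PT animal 1, 4 were higher and 1 lower in that comparison, beside 506 of all genes in both directions. Between PT and Ctrl, 4 were higher and 6 (5.26%) lower without PT animal 3, against 2.73% and 5.48% of all genes.

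Among 18 measured glycogen genes, 3 were higher in PT + HS than in Ctrl, while in PT 2 exceeded Ctrl and 1 was below it. Pygl, the glycogen phosphorylase of liver and leukocytes, was at 8.86, 7.77 and 8.74 in PT + HS, 8.43, 7.52 and 8.01 in PT, and 7.22, 6.72 and 6.69 in Ctrl. All injured mice lay above all Ctrl mice, by 1.58 in PT + HS (2.98-fold, adjusted p = 0.307) and 1.11 in PT (2.16-fold, adjusted p = 0.63). Ppp1r3d, a subunit that guides protein phosphatase to glycogen, was at 6.19, 5.74 and 6.52 in PT + HS, 5.91, 4.98 and 5.32 in PT, and 5.03, 5.28 and 4.16 in Ctrl, and exceeded Ctrl by 1.33 in PT + HS (2.51-fold, adjusted p = 0.492). Its related subunit Ppp1r3b was higher in both injured groups, by 1.31 in PT + HS and 1.48 in PT, and is named as the remaining gene of this list that passed, after its values had been seen. Its call in PT was lost without PT animal 1 (0.97) or Ctrl animal 3 (1.20), that in PT + HS without PT + HS animal 3 (0.92) or Ctrl animal 3 (1.03), and both with the methods' t-test. Ppp1r3d also passed without PT animal 2 in PT against Ctrl (0.79, against 0.58 with all arrays), as did Ugp2 (0.62, against 0.05). Pygb, the brain-type phosphorylase, was the lower gene, at 5.81, 5.75 and 6.20 in PT + HS, 5.79, 5.23 and 5.49 in PT, and 6.23, 6.53 and 6.28 in Ctrl. It differed from Ctrl by -0.84 in PT (0.56-fold, adjusted p = 0.417) and by -0.43 in PT + HS (interval -0.88 to 0.03), so that Pygl and Pygb differed from Ctrl in opposite directions in PT.

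Of 24 measured regulators, Hif1a passed, and without PT animal 2 Mlxip, which encodes the glucose-sensing transcription factor MondoA, also passed in PT against Ctrl (0.93, against 0.30 with all arrays). Without that array Mlxip passed as lower in PT + HS than in PT too (-0.93, against -0.30 with all arrays). Hif1a encodes the oxygen-regulated subunit of HIF-1, which is controlled mainly at the protein level. Its levels were 8.17, 8.26 and 8.60 in PT + HS, 9.25, 7.43 and 8.61 in PT, and 7.20, 6.81 and 7.73 in Ctrl, and PT animal 2 was the only injured mouse within the Ctrl range. The difference from Ctrl was 1.10 in PT + HS (2.14-fold, adjusted p = 0.897) and 1.18 in PT (2.27-fold, adjusted p = 0.741), and between PT + HS and PT it was -0.09. The call in PT was lost without PT animal 1 (0.77) or Ctrl animal 2 (0.97) and with the methods' t-test, and that in PT + HS without PT + HS animal 3 (0.97), Ctrl animal 1 (1.07) or Ctrl animal 2 (0.88). PT exceeded Ctrl by 1.69 without PT animal 2.

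Of 14 other carriers of glucose and pyruvate, Emb passed, which encodes embigin, a chaperone of lactate carriers at the cell surface. It was at 9.66, 9.43 and 9.98 in PT + HS and 10.14, 9.07 and 10.03 in PT, against 8.56, 8.61 and 8.64 in Ctrl. All injured mice were above all Ctrl mice, by 1.09 in PT + HS (2.13-fold, adjusted p = 0.492) and 1.15 in PT (2.22-fold, adjusted p = 0.417). Of 6 gluconeogenesis genes, Slc37a4, the carrier of glucose 6-phosphate into the endoplasmic reticulum, was at 4.57, 4.88 and 4.87 in PT + HS, 4.88, 3.74 and 4.92 in PT, and 4.83, 5.63 and 5.67 in Ctrl. It differed from Ctrl by -0.86 in PT (0.55-fold, adjusted p = 0.803), where the groups overlapped, and by -0.60 in PT + HS (interval -1.36 to 0.15). The call in PT rested on PT animal 2, without which the difference was -0.48, short of 1.5-fold. It was also lost without Ctrl animal 2 (-0.74) or Ctrl animal 3 (-0.72), with array weights (-0.54) and with the methods' t-test. Slc37a4 passed as lower in PT + HS than in Ctrl without PT animal 2. The neutrophil marker mean was higher in both injured groups than in Ctrl for these genes too, and its part was not tested.

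**Figure D5:**
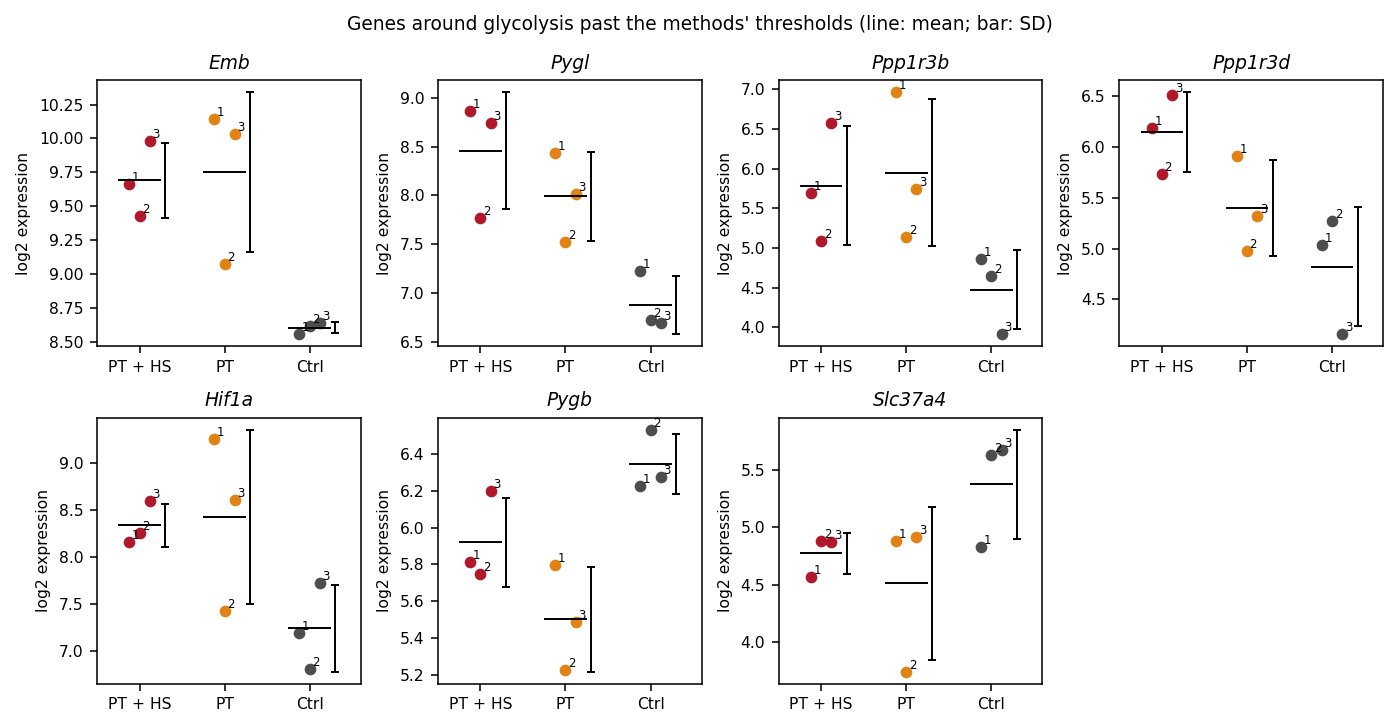
Log2 expression of the 7 genes from lists around glycolysis that passed the methods' thresholds, with a point per animal (numbered), a line at the group mean and a bar for the SD. Emb, Pygl, Ppp1r3b, Ppp1r3d and Hif1a are higher and Pygb and Slc37a4 lower than in Ctrl in at least 1 injured group (Slc37a4 not without PT animal 2, at -0.48), and Emb is nearly constant in Ctrl (8.56 to 8.64).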

How the data were processed

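Blood RNA of 9 mice was measured on 9 arrays. The deposited values are log2 expression per probe set, which the authors computed with the robust multiarray average (background correction and quantile normalization) in Expression Console and BRB-ArrayTools. The deposited probe sets belong to another Affymetrix mouse array than the Gene ST type given in the paper. Of 45101 probe sets, 932 with several symbols and 9211 without one were left out. Each gene was taken from its probe set with the highest mean, without a filter on low values, and 19 of the 31 measured members had several. In R 4.3.3, limma 3.58.1 fitted 1 mean per group over all 9 arrays and 18194 genes, with Benjamini-Hochberg adjustment per comparison, and was tested on simulated data. The study's methods name a t-test, which was an alternative here. The members and lists were chosen with earlier results of these data known. Values are given per array for members past the thresholds, for the member with the smallest p in roles without one, and for others named as picked later. Of the lists around glycolysis, up to 3 genes past the thresholds were named per list. Others were added after their values had been seen, Ppp1r3b as the remaining glycogen gene. Mlxip and further genes were added because they passed without PT animal 2. Replicates are separate animals per the paper. With 3 arrays per group, their number limits the precision, and no batch or scan time is given in the sources used here. Promoter windows came from RefSeq.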

Additional observations from a re-analysis of the deposited data

How the results depend on the processing

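The member medians moved by less than the spread between arrays (SD 0.139) under each alternative run. That SD exceeded the size of each median (0.136, -0.05 and 0.04), so that a median could change sign within it. The median of PT + HS against PT, 0.136, was 0.07 without PT animal 2 and 0.03 with array weights. That of PT against Ctrl, -0.05, was 0.08 without PT animal 2 and 0.06 with array weights. The number of members past the thresholds between PT + HS and PT, 3 in the fit reported, was 1 with the methods' t-test, 0 at a 2-fold threshold and 1 to 5 when 1 array was left out (1 without PT + HS animal 3 or PT animal 2, and 5 without PT + HS animal 2 or PT animal 1). Over all genes the t-test passed 76, against 204 in the fit reported, and 13 passed at 2-fold. Without PT + HS animal 3 or PT animal 2, 242 and 855 of all genes passed. Without PT + HS animal 2 or PT animal 1, 335 and 506 did. Between PT and Ctrl the t-test passed 293 of all genes, against 668, and 1117 passed without PT animal 2. The member count between PT and Ctrl was 4, with 1 at 2-fold (218 of all genes) and 4 to 6 with 1 array left out. Of all genes, 530 to 1493 then passed, and 730 without PT animal 1, where 6 members did. Between PT + HS and Ctrl the member count was 6, with 1 at 2-fold and 1 to 6 with 1 array left out (1 without PT + HS animal 3). The t-test passed the 4 higher members, Eno3 and Aldoc no longer passing. Of all genes, 596 passed in the fit reported, 260 at 2-fold and 542 with the t-test. With 1 array left out 486 to 831 of all genes passed, and 550 without PT + HS animal 3. With array weights (4.96 for PT animal 1, 0.227 for PT animal 2), Hk1, Hk2 and Pfkfb4 fell below 1.5-fold between PT + HS and PT (0.54, 0.57 and 0.54), while Pfkfb3 and Pfkm passed (0.67 and 0.66), beside 877 of all genes. In PT against Ctrl, 1666 of all genes then passed the thresholds and 448 had an adjusted p under 0.05. Tpi1 (-0.43) no longer passed, Pfkp (0.59) did, and the adjusted p was 0.00663 for Slc2a1 (2.50) and 0.0337 for Pgam1 (0.89). In PT + HS against Ctrl, Slc2a1 had an adjusted p of 0.0368 when only the arrays of those groups were fitted. In that fit 134 of all genes had an adjusted p under 0.05, and 4.94% passed the thresholds. With every probe set as a feature, Dlat between PT + HS and PT turned to -0.0327, the median of its probe sets, 1 of which passed as lower. Over single members, 1585 of the values under alternatives kept their direction and side of the threshold, 15 passed it newly, 33 no longer passed, 115 changed sign without a call and 1 reversed. Replicate numbers stand for separate animals, and deviations of arrays with the same number correlated at -0.12 to 0.48, highest for number 3 between PT and Ctrl. A fit with the replicate number as a block left the member counts at 3, 4 and 6. Of all genes it passed 264, 743 and 693, against 204, 668 and 596 in the fit reported. The adjusted p was then under 0.05 for 0, 2 and 21 of all genes, against 0, 0 and 1. The causes of these changes were not tested.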
